A study of Mus musculus with 5 samples.

Results

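This report covers 8 genes of cholesterol synthesis and of its control by the SREBP transcription factors in ribosome profiling of mouse embryonic stem cells (mESCs). The genes are Hmgcs1, Fdps, Fdft1, Sqle, Lss, Cyp51, Srebf2 and Insig1, and they were found by their gene symbols in the Gencode annotation, with no threshold on a measured value. All 8 were found, with 40 annotated transcripts of which 20 were of the type protein_coding, among 12379 genes with a tested protein_coding transcript and 135276 transcripts in all. The value of a gene was that of its protein_coding transcript with the highest mean level. RIBO-seq sequences the short stretches of mRNA that ribosomes shield from a nuclease, called footprints, and so counts ribosomes on each mRNA.

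The mESCs, cultured cells that can form every tissue of the embryo, were kept in medium with 1000 units/ml of LIF, a cytokine that holds them undifferentiated, and 10% fetal bovine serum. All 5 libraries, which the labels call biological replicates, came from cells at 80% confluence that received cycloheximide, a blocker of elongation, before lysis. RNase I (1.3 U for 45 min) then removed RNA outside ribosomes. The 3 standard RIBO-seq libraries used ribosomes spun down across 30% sucrose. For the 2 AHARIBO RIBO-seq libraries, ribosomes were pulled out by their nascent chains: L-azidohomoalanine (AHA), which replaces methionine in growing peptides, was linked to 50 µM of a biotin conjugate in the lysate and bound to magnetic beads, and no cushion is described. The labels give all 5 libraries as untreated, and the methods section states no AHA dose for RIBO-seq. A legend of the study places standard RIBO-seq on the input, the lysate before capture, and whether those cells had received AHA is not spelled out for these libraries. Fragments of 25 to 35 nt were sequenced in both. The study's outline of AHARIBO includes methionine depletion and AHA incubation of the cells, which are not restated for these libraries. A difference in how the cells were treated and the method of isolation therefore cannot be told apart. AHARIBO against standard is the only comparison that these libraries allow, and its question is whether ribosomes on the mRNAs of this pathway were recovered alike by both.

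Cholesterol is built from acetyl-CoA in the cytosol and the endoplasmic reticulum, through mevalonate, farnesyl diphosphate, squalene and lanosterol. The SREBP proteins are made as precursors in the membrane of the endoplasmic reticulum, where Insig proteins hold them, with their escort Scap, while sterols are plentiful. When sterols run low the complex moves to the Golgi, proteases cut the precursor, and the freed part switches on the genes of this pathway, those of Srebf2 and Insig1 among them.

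The libraries held 6403651 to 11150527 reads, and the 3 reads taken as the detection floor corresponded to 0.262 to 0.476 CPM (the TMM-scaled count for each 1e+06 reads), which covers counting error only. Each of the 8 genes had between 166 and 1124 reads in every library. The embryonic stem cell markers were present in all libraries, with a summed level over the 10 genes of 1500 to 1606 CPM in standard RIBO-seq and 1349 to 1470 CPM in AHARIBO RIBO-seq, and 3 of the 10 (Utf1, Sox2 and Klf4) were called lower in AHARIBO, beside 2.53% of all genes tested. The 6 fibroblast markers summed to 3.86 to 5.15 CPM and 4.11 to 4.39 CPM, with 1 of the 6 at 0 in every library, and the 5 endoderm markers to 2.98 to 4.28 CPM and 2.1 to 3.4 CPM. The 6 neural markers summed to 54.1 to 54.4 CPM and 46.7 to 49.4 CPM, mostly from Tubb3. Fewer cells of a type and less RNA per cell cannot be told apart in such bulk libraries, and the part of these marker differences in the results below was not tested.

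AHARIBO depends on methionine, so the in-frame ATG codons of each coding sequence mark where AHA can enter a chain. The first 60 codons of 3 coding sequences are given here as examples of where such sites fall, read from the reference transcripts (GRCm38), with each in-frame ATG in capitals. All 3 lie on the plus strand. Those of Insig1 (chr5:28071438-28071617) and Hmgcs1 (chr13:119699674-119699853) each lie in a single exon, and those of Srebf2 (chr15:82147403-82169829) are interrupted by an intron.
Insig1: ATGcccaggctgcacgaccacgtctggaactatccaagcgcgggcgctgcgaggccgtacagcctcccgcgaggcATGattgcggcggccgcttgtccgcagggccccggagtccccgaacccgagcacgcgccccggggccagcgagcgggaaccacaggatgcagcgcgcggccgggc
Hmgcs1: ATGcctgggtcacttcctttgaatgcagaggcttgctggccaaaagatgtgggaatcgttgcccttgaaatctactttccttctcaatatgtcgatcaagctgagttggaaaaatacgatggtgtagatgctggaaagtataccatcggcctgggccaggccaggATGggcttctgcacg
Srebf2: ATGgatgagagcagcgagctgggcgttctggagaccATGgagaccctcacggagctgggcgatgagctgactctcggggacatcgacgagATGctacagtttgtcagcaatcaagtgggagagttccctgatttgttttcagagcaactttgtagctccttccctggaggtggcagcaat

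The proteins differed widely in these sites. Insig1, the shortest at 259 residues, has 4 methionines, at positions 1, 26, 147 and 250 counted from the start of the protein. Srebf2, the longest at 1130 residues, has 21, with the next after the start at position 13. Sqle (572 residues, 8 methionines) has none between the start and position 229, and Lss (733 residues, 16) and Fdps (353 residues, 8) have their next methionine at positions 128 and 106. Hmgcs1 (520 residues), Cyp51 (503 residues) and Fdft1 (416 residues) have 12 each, the next after the start at positions 56, 18 and 21. Per 100 residues the range was 1.4 in Sqle to 2.88 in Fdft1.

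**Figure D1:**
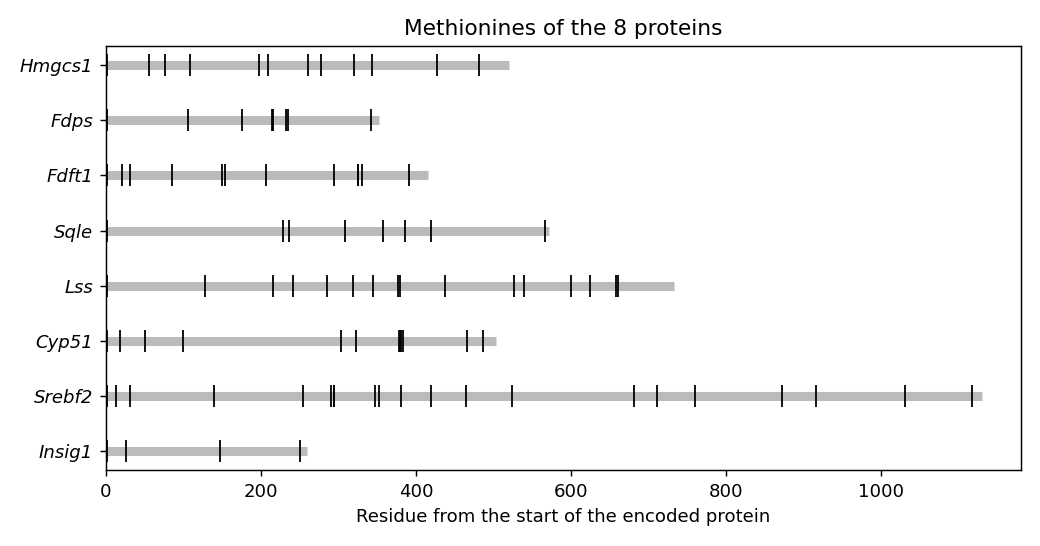
Positions of methionines (black ticks) along the 8 encoded proteins (grey bars), in residues from the start. Insig1 carries 4 and Srebf2 21, and Sqle has an empty stretch up to position 229.

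Footprints on the mRNAs of all 8 genes were recovered at similar levels by the 2 methods. In edgeR's quasi-likelihood test over all transcripts, 0 of 8 genes passed an adjusted p of 0.05, while 5.12% of the 12379 genes tested did (634 genes). DESeq2 also called 0 of the 8. At an unadjusted p under 0.05, 1 of 8 was counted, Insig1, beside 19.4% of all genes tested. The log2 fold changes, AHARIBO over standard, ran from -0.21 to 0.14 with a median of 0.037, beside a median of -0.003 over all genes tested, and 4 were above and 4 below 0. The libraries of the 2 methods did not overlap for 3 of the 8 genes (Hmgcs1 and Fdft1 higher in AHARIBO, Insig1 lower), and for 34.3% of all genes tested. Summed over the 8 genes, the level was 388, 404 and 388 CPM in standard RIBO-seq and 401 and 393 CPM in AHARIBO RIBO-seq, so that both AHARIBO values lay within the range of the standard libraries.

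**Figure D2:**
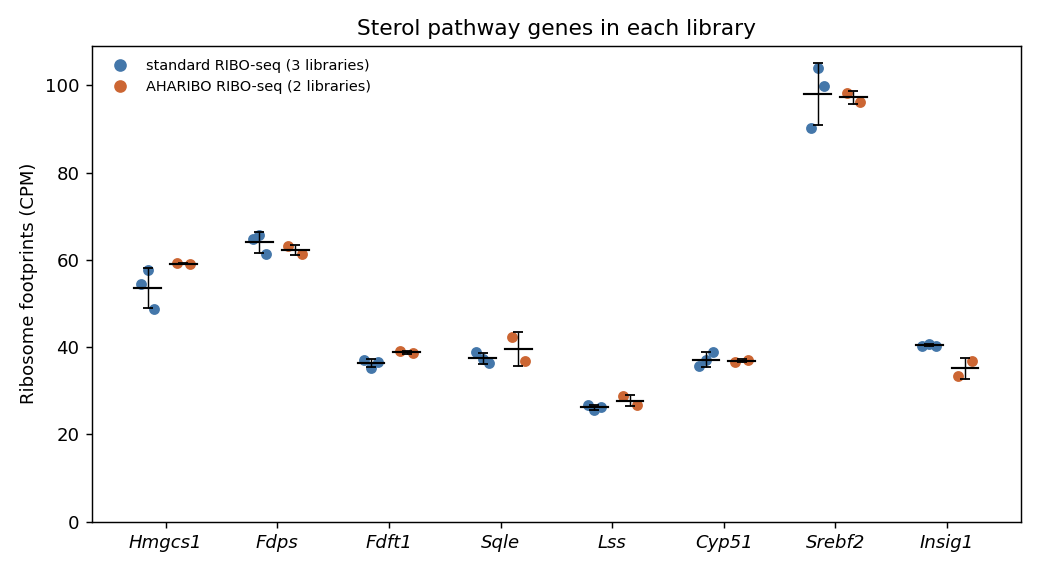
Footprint level (CPM, y axis) of the 8 genes in each library, in the order of the pathway with the regulators last. Blue points are the 3 standard and orange points the 2 AHARIBO libraries, and black lines give the mean with 1 SD. Insig1 lay lower in both AHARIBO libraries (33.5 and 36.8 CPM) than in any standard library (40.3 to 40.8 CPM).

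Of the enzymes, Hmgcs1, the cytosolic HMG-CoA synthase that makes the substrate of HMG-CoA reductase, had 54.4, 57.6 and 48.7 CPM in standard replicates 1, 2 and 3 and 59.2 and 59.1 CPM in AHARIBO replicates 1 and 2. Both AHARIBO libraries were above all 3 standard ones, by a margin smaller than the spread among the standard libraries. The log2 fold change of Hmgcs1 was 0.14 with a 95% interval of -0.033 to 0.30 and an adjusted p of 0.4. It was 0.21 with duplicate reads kept and 0.079 without standard replicate 3 or with the replicate block. Hmgcs1 (chr13:119690464-119708260, plus strand, 11 exons) overlaps the antisense gene Gm48342, whose transcript matches 14.7% of the 30-nt windows of the Hmgcs1 transcript on the opposite strand and was counted at 17.8 to 21.1 CPM. Antisense reads were removed by the authors, and whether those counts belong to Gm48342 or to Hmgcs1 was not tested.

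Fdps, the farnesyl diphosphate synthase, had 64.8, 65.8 and 61.4 CPM in standard RIBO-seq and 63.1 and 61.4 CPM in AHARIBO RIBO-seq. The ranges overlapped, and the log2 fold change was -0.042 (95% interval -0.20 to 0.12, adjusted p = 0.838). With duplicate reads kept the direction turned, to 0.11 (adjusted p = 0.548). This value is uncertain as a measure of Fdps alone, because 89.8% of the 30-nt windows of its transcript (chr3:89093588-89101888, minus strand, 11 exons) also occur on the same strand in transcripts of 8 other genes. Most were shared with Gm43738 (79.1% of windows), a gene annotated as protein_coding over the same locus, at chr3:89081939-89101099, which was counted at 55.2, 56.7 and 52.2 CPM and at 55.5 and 53.2 CPM. How reads matching both were assigned is not stated.

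Fdft1, the squalene synthase, had 37.1, 35.3 and 36.5 CPM in standard RIBO-seq and 39.1 and 38.6 CPM in AHARIBO RIBO-seq. The groups did not overlap, yet the log2 fold change of 0.10 had an interval of -0.074 to 0.27 and an adjusted p of 0.578. Fdft1 (chr14:63145150-63179578, minus strand, 10 exons) shares 16.8% of its windows with the processed pseudogene Gm6781 elsewhere on the same chromosome. Gm6781 was counted at 21.3 to 25.3 CPM, so part of the Fdft1 reads is uncertain too. On the opposite strand 20.3% of the windows match Ctsb, and antisense reads were removed by the authors.

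The 3 enzymes that act on squalene and lanosterol overlapped between the methods. Sqle, the squalene epoxidase that catalyses a rate-limiting step of sterol synthesis, had 38.8, 37.2 and 36.3 CPM and then 42.3 and 36.8 CPM, with a log2 fold change of 0.080 (interval -0.097 to 0.26, adjusted p = 0.686). AHARIBO replicate 1 stood above and replicate 2 within the standard range, and without replicate 1 the log2 fold change turned to -0.026. Lss, which folds the epoxide into lanosterol, had 26.8, 25.5 and 26.3 CPM and then 28.7 and 26.8 CPM, a log2 fold change of 0.085 (interval -0.11 to 0.27, adjusted p = 0.69) that was 0.031 without AHARIBO replicate 1. Cyp51, the cytochrome that removes a methyl group from lanosterol, had 35.6, 37.0 and 38.9 CPM and then 36.7 and 37.1 CPM. Both AHARIBO libraries of Cyp51 lay inside the standard range, and its log2 fold change was -0.005 (interval -0.18 to 0.17, adjusted p = 0.985). Sqle (chr15:59315081-59331192, plus strand, 11 exons) shared no window with another gene. Lss (chr10:76531607-76555479, plus strand, 22 exons) and Cyp51 (chr5:4081145-4104746, minus strand, 10 exons) matched other genes in 5.86% and 4.48% of windows on the opposite strand. On the same strand 0.948% of the Cyp51 windows occur among 80 other genes, and no Lss window does.

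Of the regulators, Srebf2, the SREBP family member that mainly drives sterol genes, had 90.2, 104 and 99.8 CPM in standard RIBO-seq and 98.3 and 96.2 CPM in AHARIBO RIBO-seq. Both AHARIBO libraries lay inside the standard range, and the log2 fold change was -0.011 (interval -0.17 to 0.15, adjusted p = 0.964). Srebf2 (chr15:82147181-82205379, plus strand, 19 exons) shared no 30-nt window with another gene.

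Insig1, the membrane protein that holds the Scap and SREBP complex in the endoplasmic reticulum, had 40.3, 40.8 and 40.3 CPM in standard RIBO-seq and 33.5 and 36.8 CPM in AHARIBO RIBO-seq. The standard libraries were within 1 CPM of each other and both AHARIBO libraries lay below them. The standard mean was 40.5 ± 0.305 CPM (SD, n = 3) and the AHARIBO mean 35.2 ± 2.36 CPM (SD, n = 2). Their log2 fold change of -0.21 had a standard error of 0.088 and a 95% interval of -0.38 to -0.03. The interval lay below 0, but after adjustment over all transcripts the p of 0.0229 became 0.179 in edgeR's test, so the difference did not pass. Without AHARIBO replicate 1 the log2 fold change of Insig1 was -0.14 (adjusted p = 0.741). Of the 30-nt windows of the Insig1 transcript, 4.09% occur on the same strand in 4 other genes, most of them (3.97%) in the processed pseudogene Gm37784, which was counted at 0.896 to 2.45 CPM (log2 fold change 0.63, adjusted p = 0.284). The share of Insig1 in the summed level of the 8 genes was 10.4%, 10.1% and 10.4% in the standard and 8.36% and 9.38% in the AHARIBO libraries.

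Duplicate reads moved with this difference. For Insig1 (chr5:28071363-28078662, plus strand, 5 exons), 25.7% to 29.7% of reads had been removed as duplicates in standard RIBO-seq and 19.6% to 21.7% in AHARIBO RIBO-seq, whereas over whole libraries 43.3% to 43.8% had been removed in standard and 44.9% to 47.7% in AHARIBO RIBO-seq. With duplicates kept, Insig1 had a log2 fold change of -0.35 and an adjusted p of 0.0519. The opposite order held for Hmgcs1 (16.7% to 18.4% against 20.3% to 24.4%) and Fdps (25.3% to 27.6% against 28.7% to 39.0%), and the shares of the other 5 genes overlapped between the methods. Molecular identifiers are not mentioned in the sources used here, and from the counts alone copies of a fragment and separate fragments with the same ends cannot be told apart.

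Protein length also went with the difference between methods. Over 12250 tested genes, the log2 fold change and protein length had a Spearman rho of 0.28 and a Pearson r of 0.16 across genes, which share libraries and are not independent replicates. Over the 5981 of them above 10 CPM these were 0.46 and 0.41. For the number of methionines rho was 0.26 over all and 0.43 above 10 CPM. It was 0.004 for methionines per 100 residues and -0.017 for the position of the next methionine above 10 CPM. In 5 equal groups of all tested genes by length, the median log2 fold change was -0.099 in the group of up to 243 residues and 0.10 in the group from 839 residues. Insig1 and Fdps fell in the group of 244 to 388 residues, whose median was -0.046, and Insig1 lay 0.16 below it while Fdps lay 0.004 above. Hmgcs1, Fdft1 and Cyp51 (389 to 548 residues, median -0.013) lay 0.15, 0.11 and 0.007 above their group. Sqle and Lss (549 to 838 residues, median 0.032) lay 0.049 and 0.053 above theirs. Srebf2, in the longest group, lay 0.11 below its median of 0.10. The part of length in these values was not tested.

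Levels of different genes were set side by side per kb of coding sequence, since a longer coding sequence holds more ribosomes. The reads were those of the whole transcript, not of the coding sequence alone. Fdps and Insig1 were at the top and Lss at the bottom, and the level of Fdps is uncertain because of the sequence it shares with other genes. In standard RIBO-seq (n = 3) the means were 60.4 ± 2.17 CPM per kb for Fdps, 52.1 ± 0.392 for Insig1, 34.4 ± 2.90 for Hmgcs1, 29.1 ± 0.718 for Fdft1, 28.9 ± 2.13 for Srebf2, 24.6 ± 1.08 for Cyp51, 21.8 ± 0.718 for Sqle and 11.9 ± 0.295 for Lss. Of neighbours in this order, the library ranges of Fdft1 and Srebf2 overlapped in standard RIBO-seq and those of the other 6 pairs did not. In AHARIBO RIBO-seq the ranges of Cyp51 and Sqle overlapped and those of Fdft1 and Srebf2 did not.

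Against the 12379 genes tested, 92.1% had a level per kb at or below that of Fdps, 90.8% at or below Insig1 and 85.2% at or below Hmgcs1. The share was 63.8% for Lss and between 77.4% and 82.7% for the other 4. Srebf2, with the longest coding sequence of the 8 (3390 nt), was the fifth. When the whole transcript was used as the length, 3 of the 8 genes (Fdps, Hmgcs1 and Lss) kept their rank. Insig1, whose transcript of 2697 nt holds 777 nt of coding sequence, went from the second to the fourth, and Srebf2 from the fifth to the second.

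**Figure D3:**
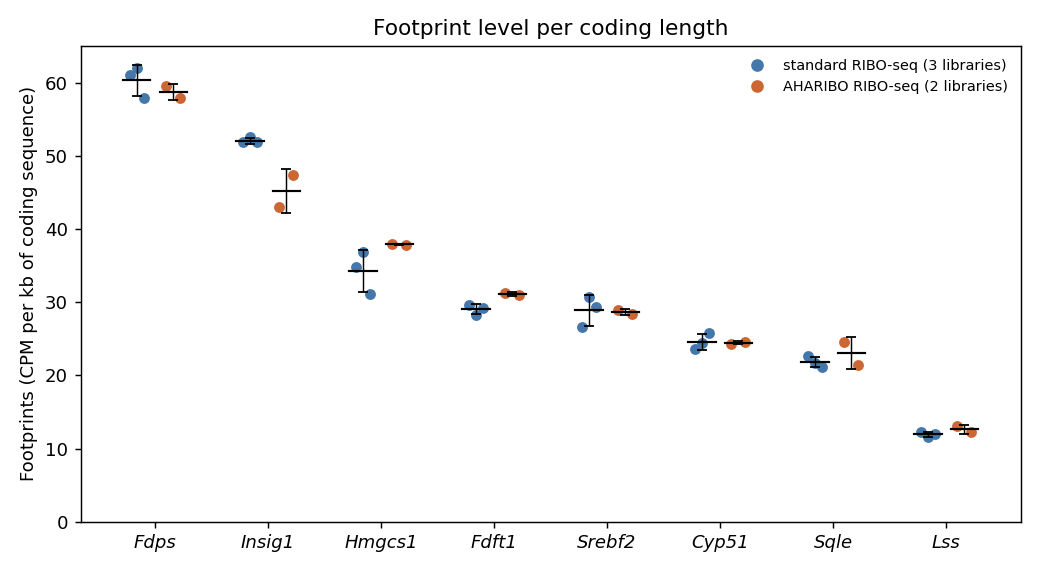
Footprint level per kb of coding sequence (CPM per kb, y axis) in each library, genes ordered by the standard mean. Blue points are standard and orange points AHARIBO libraries, with mean and 1 SD in black. Levels fall from about 60.4 CPM per kb in Fdps to 11.9 in Lss, and Insig1 is the gene whose AHARIBO points sit below its standard points.

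Of the 40 annotated transcripts of the 8 genes, 39 passed the filter of 1 CPM in at least one library, and Lss-208 did not. They comprised 19 of 20 protein_coding transcripts, all 17 of the type retained_intron, 2 processed transcripts and 1 marked for nonsense-mediated decay. A single transcript was called in edgeR's test, beside 4.51% of all 66972 transcripts tested. It was Lss-207, a retained_intron transcript at chr10:76551210-76556618 with 1.79, 2.54 and 1.75 CPM in standard and 4.37 and 3.00 CPM in AHARIBO RIBO-seq, which gave 0.85 as log2 fold change (standard error 0.26, adjusted p = 0.0453). These values rest on 11 to 50 reads per library. The call was lost without AHARIBO replicate 1, when the log2 fold change was 0.54 and the adjusted p 0.644. It was also lost without standard replicate 1 (adjusted p = 0.192) or 3 (adjusted p = 0.121), with the replicate block (0.13), with duplicate reads kept (0.144) and with the filter of filterByExpr (0.0542), where the log2 fold changes were 0.75, 0.78, 0.77, 0.83 and 0.85.

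Transcripts of one gene share reads and are no separate measurements: 53.6% of the windows of Lss-207 also lie in the main transcript Lss-201, and 98.6% of those of Hmgcs1-201 lie in Hmgcs1-202. Hmgcs1-201 and Hmgcs1-202 both had a log2 fold change of 0.14, and Lss-201 and the retained_intron transcript Lss-204 had 0.085 and 0.081. Some transcripts departed from the main one of their gene. Srebf2-205 and Srebf2-207, of the type retained_intron, had a log2 fold change of -0.17 each on 242 to 371 reads per library, against -0.011 for Srebf2-201 (adjusted p = 0.298 and 0.301). The protein_coding transcript Hmgcs1-203 had -0.12 (adjusted p = 0.779). Insig1-202 had 1.05 and 1.64 CPM on average, a log2 fold change of 0.66 and an adjusted p of 0.385, opposite in sign to Insig1-201. Cyp51-203 (4.38 and 6.40 CPM, log2 fold change 0.55, adjusted p = 0.0865) and Lss-205 (1.84 and 2.97 CPM, log2 fold change 0.68, adjusted p = 0.154) did not pass either. An antisense gene, 4930483K19Rik, overlaps Lss and was counted at 1.66 to 3.20 CPM.

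**Figure D4:**
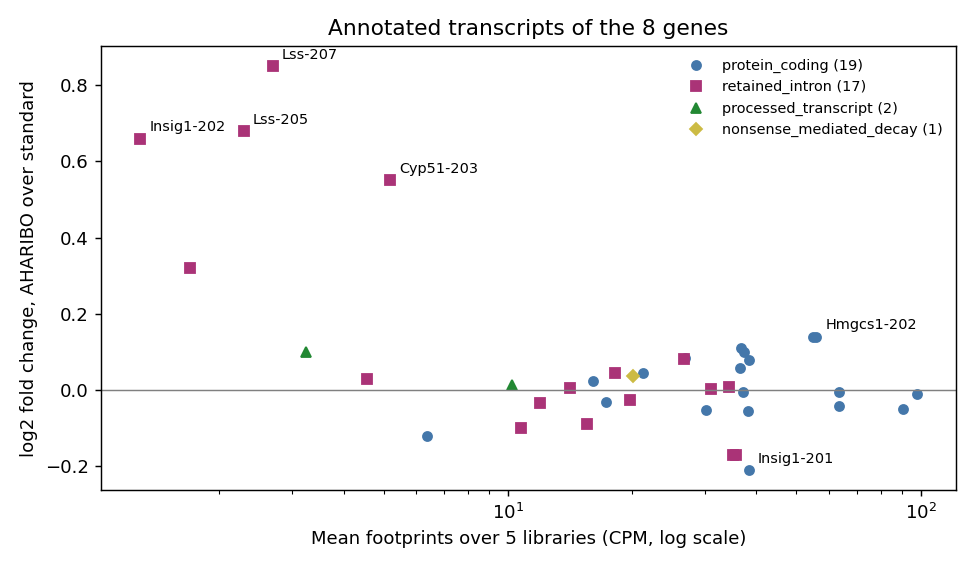
Mean level over 5 libraries (CPM, log axis) and log2 fold change, AHARIBO over standard, of the 39 tested transcripts of the 8 genes, by annotated type. The 4 highest points, Lss-207 among them, are retained_intron transcripts under 10 CPM, and transcripts above 10 CPM lie between -0.21 and 0.14.

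Of the other genes of the pathway, 2 of 57 tested passed edgeR's test, both higher in AHARIBO, beside 5.12% over all genes. They were Mbtps2 and Elovl6. The 57 came from 59 listed genes, as Nr1h3 was below the filter and Pggt1b was not analysed here, and their median log2 fold change was 0.018. DESeq2 called none of them, though it gave no adjusted p for Mbtps2.

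The other 15 enzymes of cholesterol synthesis gave 0 calls in edgeR's test (5.12% of all genes tested) and 2 at an unadjusted p under 0.05 (19.4%). Of their log2 fold changes 11 were above 0 and 4 below, with a median of 0.047 and a range of -0.24 to 0.42. Lbr, the lamin B receptor, which also reduces a sterol double bond, had the highest level per coding length. Lbr had 89.5, 95.7 and 90.4 CPM in standard and 93.4 and 92.0 CPM in AHARIBO RIBO-seq (log2 fold change 0.011, interval -0.15 to 0.17). The ranges of Lbr overlapped between the methods.

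Among 12 genes of SREBP processing and of the turnover of HMG-CoA reductase, 1 was called in edgeR's test, beside 5.12% of all genes tested. At an unadjusted p under 0.05 there were 3, beside 19.4% of all genes tested, and the median log2 fold change was 0.007. Mbtps2, the protease that makes the intramembrane cut releasing SREBP, had 4.59, 6.40 and 4.76 CPM in standard and 7.70 and 7.89 CPM in AHARIBO RIBO-seq, which gave 0.55 as log2 fold change (standard error 0.17, interval 0.21 to 0.89, adjusted p = 0.048). Both AHARIBO libraries were higher than all standard ones. The adjusted p was 0.05 or over in 10 of 13 alternatives, among them without AHARIBO replicate 1 (0.253) or 2 (0.108) and without standard replicate 1 (0.242) or 3 (0.126). The log2 fold changes of those 10 were 0.45 to 0.58. Other protein_coding transcripts of Mbtps2 did not pass, with 0.32 for Mbtps2-203 and Mbtps2-208 (adjusted p = 0.35 each) and -0.073 for Mbtps2-206 (adjusted p = 0.92). The processed transcript Mbtps2-202 did, with 2.69, 3.53 and 2.38 CPM in standard and 6.12 and 5.19 CPM in AHARIBO RIBO-seq (log2 fold change 0.96, adjusted p = 0.00362). The genes with the highest level per coding length did not pass. Ube2g2, a ubiquitin-conjugating enzyme of protein turnover at the endoplasmic reticulum, had 7.39, 7.40 and 7.14 CPM and then 6.04 and 6.09 CPM (log2 fold change -0.27, interval -0.60 to 0.055, adjusted p = 0.38). Erlin2, a membrane protein of the same turnover route, had 14.1, 13.7 and 12.1 CPM and then 18.0 and 15.0 CPM (log2 fold change 0.31, interval 0.066 to 0.55, adjusted p = 0.137).

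For sterol uptake, transport and export, 0 of 12 tested genes were called (5.12% of all genes tested) and 3 had an unadjusted p under 0.05 (19.4%). The median log2 fold change was -0.005 and the range -0.75 to 0.33. Npc2, the lysosomal carrier of cholesterol, had 29.0, 31.3 and 31.7 CPM and then 28.2 and 27.6 CPM (log2 fold change -0.14, interval -0.32 to 0.051). Both AHARIBO libraries of Npc2 lay below all standard ones, and its adjusted p was 0.458.

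Of 10 fatty acid genes of the SREBP pathway, 1 was called (5.12% of all genes tested) and 2 had an unadjusted p under 0.05 (19.4%). The median log2 fold change was -0.048. Elovl6, an elongase of saturated fatty acids, had 19.3, 25.1 and 22.2 CPM in standard and 29.5 and 26.4 CPM in AHARIBO RIBO-seq, which gave 0.34 as log2 fold change (standard error 0.10, interval 0.13 to 0.54, adjusted p = 0.0461). The groups did not overlap. The adjusted p was 0.05 or over in 8 of 14 alternatives, among them without AHARIBO replicate 1 (0.489) and without standard replicate 1 (0.338) or 3 (0.0833). The log2 fold changes of those 8 were 0.23 to 0.36. The other protein_coding transcripts of Elovl6 did not pass, with 0.25 for Elovl6-205 (adjusted p = 0.16), 0.23 for Elovl6-202 (0.233), 0.12 for Elovl6-203 (0.608) and 0.054 for Elovl6-204 (0.929). Scd2, a stearoyl-CoA desaturase, had 131, 132 and 138 CPM and then 121 and 129 CPM (log2 fold change -0.098, interval -0.25 to 0.057). Acly, which supplies cytosolic acetyl-CoA, had 173, 179 and 175 CPM and then 168 and 174 CPM (log2 fold change -0.04, interval -0.19 to 0.11).

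Of the genes that draw on farnesyl diphosphate for other products, 0 of 8 were called (5.12% of all genes tested). An unadjusted p under 0.05 was found for 0 of the 8 (19.4% of all genes tested), and the log2 fold changes ran from -0.29 to 0.20. The farnesyltransferase subunits Fntb and Fnta, which attach farnesyl groups to proteins, had the highest levels per coding length. Fntb had 32.6, 30.8 and 29.5 CPM and then 33.0 and 31.2 CPM (log2 fold change 0.047, interval -0.13 to 0.23). Fnta had 26.7, 24.3 and 25.9 CPM and then 25.3 and 24.9 CPM (log2 fold change -0.028, interval -0.22 to 0.17).

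**Figure D5:**
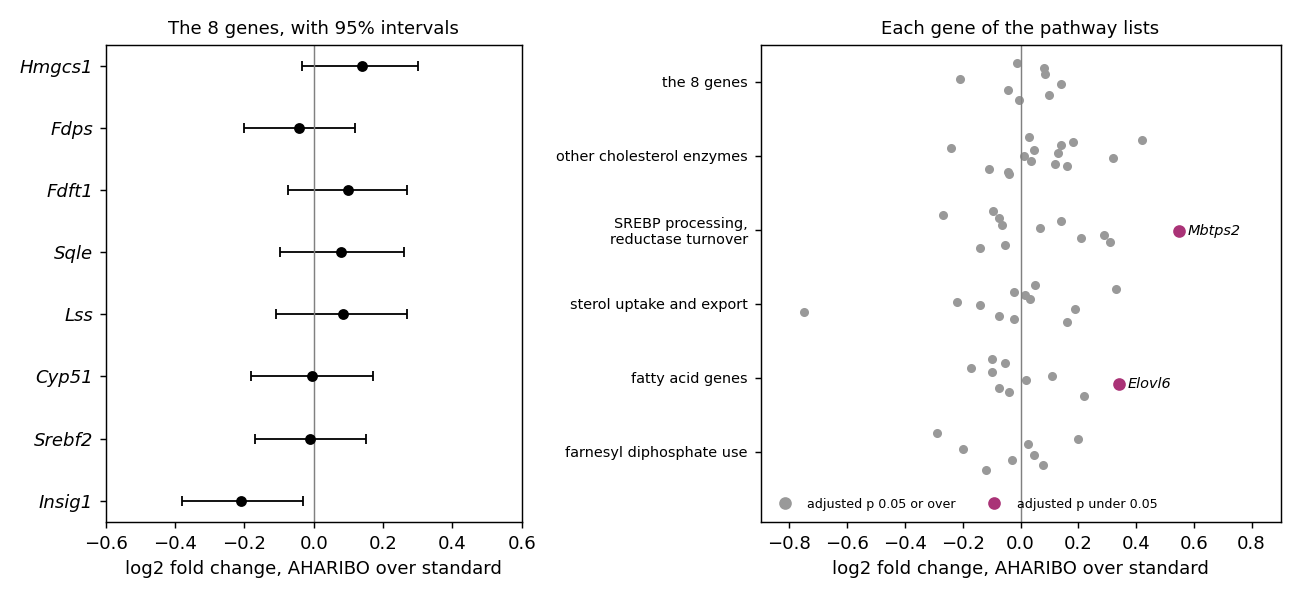
Log2 fold change, AHARIBO over standard (x axes). Left, the 8 genes with 95% intervals, of which the interval of Insig1 (-0.38 to -0.03) lies below 0. Right, every tested gene of the 8 and of the 5 other pathway lists, with genes past an adjusted p of 0.05 in purple (Mbtps2 and Elovl6).

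The genes also differ in the sequence before their start sites, which these libraries do not measure. RefSeq promoters (GRCm38.p6, 250 bases before to 50 after the start) were listed for 5 of the 8 genes, Cyp51, Insig1, Lss, Hmgcs1 and Srebf2. They were searched on both strands for the letters of the sterol regulatory element TCACNCCAC, the CCAAT box CCAAT and the GC box GGGCGG. The sterol element was in 1 of the 5, that of Hmgcs1, and in 1.24% of 32851 promoters. Elements with other letters, or outside this window, were not searched for, so a gene without a match may still hold one. CCAAT was in all 5 and in 37.4% of promoters, and GGGCGG in all 5 and in 35.7%. The match in Hmgcs1 starts 137 bases before the annotated start and is shown in capitals within 60 bases of the plus strand, at chr13:119690189-119690248, as the letters through which SREBP is known to act.
Hmgcs1 promoter: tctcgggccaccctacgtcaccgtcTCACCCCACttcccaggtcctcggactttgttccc

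Srebf2 also carries Mir33 in an intron, the microRNA known to repress cholesterol export genes. Its precursor was counted at 0 reads in all 3 standard libraries and in AHARIBO replicate 2, and at 1 read in AHARIBO replicate 1, which is under the floor of 3 reads. The mature sequence of the arm miR-33-5p from RefSeq (chr15:82198127-82198147) is given with its seed, bases 2 to 8, in capitals. As fragments of 25 to 35 nt were selected, the count bears on the precursor and not on this mature arm.
mmu-miR-33-5p: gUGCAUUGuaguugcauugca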

How the data were processed

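RIBO-seq libraries of mESCs, 3 standard and 2 AHARIBO, were assigned to methods by their labels. The authors deposited read counts per transcript, with and without duplicate reads, and transcript lengths. They trimmed reads with Trimmomatic 0.36, discarded those shorter than 20 nt, removed rRNA and tRNA reads, mapped the rest to Gencode M17 transcripts with STAR, and removed antisense and duplicate reads. How reads matching several transcripts were counted is not stated in the sources used here, nor are molecular identifiers mentioned, without which removing duplicates also removes separate fragments with the same ends. Of the per-sample columns, 0 were left unused.

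Gene names, transcript types and coding sequences were taken from the M21 release of Gencode (GRCm38), which held 99.8% of the transcript IDs. CPM values used TMM factors over all transcripts. Transcripts reaching 1 CPM in any library were tested with edgeR 4.0.16 (quasi-likelihood test, R 4.3.3), two-sided, on the counts without duplicates, with Benjamini-Hochberg adjustment over 66972 transcripts, and called at an adjusted p under 0.05. Intervals are 95% and use approximate standard errors. DESeq2 1.42.0 was an alternative test. Other alternatives covered size factors, filters, a replicate block, duplicates, the choice of transcript, coding against transcript length, and leaving out each library. The alternatives for single transcripts were added after seeing the data.

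The members and gene lists were chosen with earlier results of these data known. The text names all 8 members, every listed pathway gene that was called, and from each list the 2 genes with the highest CPM per kb of coding sequence in standard RIBO-seq. Some items that this rule takes are not reported here. Transcripts other than the main ones, Nr1h3, Pggt1b, marker genes and genes sharing sequence were named after their values were seen. Counts were simulated for the 66972 transcripts, each drawn independently, with changes set in 200 of them that were not among the lowest counted. Of these changes, edgeR's test recovered 97% of the 2-fold and 100% of the 4-fold with 8 unchanged transcripts called, and DESeq2 84% and 100% with 1. Differences as small as those of the 8 genes were not simulated. The replicate numbers were not taken as pairs of samples. The planned identity of Insig1 and Insig2 proteins was not analysed here.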

Additional observations from a re-analysis of the deposited data

How the results depend on the processing

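None of the 8 genes was called under any of 14 alternative settings, and the lowest adjusted p was 0.0519 (Insig1 with duplicate reads kept). Of 112 values of the members under these settings, 99 kept their sign. Choosing the main transcript by the standard libraries gave the same transcripts, so its 8 values repeat the main ones and are no separate check. Insig1 kept its sign in all, from -0.35 to -0.14, and so did Hmgcs1 (0.079 to 0.21), Fdft1 (0.079 to 0.13) and Lss (0.031 to 0.13). The 13 values that changed sign were between -0.026 and 0.11 and none passed the test. They were Sqle at -0.026 without AHARIBO replicate 1, Fdps at 0.11 with duplicates kept, and values of Srebf2 and Cyp51. Srebf2 was at 0.016 with 1 transcript per gene, 0.023 with library size alone and 0.004 with the replicate block. Cyp51 was at 0.021, 0.029 and 0.024 under those 3 settings. Srebf2 was also at 0.007 without AHARIBO replicate 2, and at 0.038 and 0.0003 without standard replicates 2 and 3. Cyp51 was also at 0.005 and 0.023 without AHARIBO replicate 1 and standard replicate 3. When single libraries were left out, values that kept their sign reached 0.17 for Sqle, -0.071 for Srebf2 and -0.036 for Cyp51.

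The count of other pathway genes called higher was 0 with 1 transcript per gene, DESeq2, RLE size factors, duplicates kept or the replicate block, 1 with filterByExpr or no filter, and between 0 and 3 when single libraries were left out. Genes called lower numbered 0 throughout. The count of member transcripts called was 0 with DESeq2, duplicates kept, filterByExpr or the replicate block, and between 0 and 2 when single libraries were left out (settings added after seeing the data). Same-numbered libraries of the methods had correlations of 0.0355 and -0.0942 of their deviations, and the numbers were not taken as pairs. The deviations of the 2 AHARIBO libraries mirror each other, so these correlations cannot exclude a pairing. The replicate block changed no call of a member. Of the 8 ranks by level, 3 held when the whole transcript replaced the coding sequence as the length. With 3 and 2 libraries and 166 to 1124 reads per gene, intervals of the members spanned about 0.3 to 0.4 on the log2 scale.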
